A study of Mus musculus with 96 samples.

Results

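Cardiomyocytes (CMs), the contractile muscle cells of the heart, were compared 14 days after acute myocardial infarction (AMI) with CMs of hearts without an infarct (D0). The comparison rests on 8 of the 96 small RNA libraries of the series, the 4 labelled CM at D14 and the 4 labelled CM at D0, and they were taken by these labels alone. All mice were male C57Bl/6J and 12 to 14 weeks old at operation. At D14 a branch of the left coronary artery had been tied off permanently, whereas the D0 mice were controls without an infarct, so surgery and infarct cannot be told apart here. CMs were enriched by repeated slow centrifugation and were not sorted by a marker. Each library was made from a pool of 3 mice, or fewer where a sample was missing, so the p-values below measure the spread between such pools. The paper describes pooling of RNA and, in its part on cell isolation, pooling of cells. Of 1978 mature miRNAs listed, 969 had a count in at least 1 of the 8 libraries and 484 passed the filter on low counts. In an extract of enriched cells, fewer cells of a type and less of a miRNA per cell cannot be told apart.

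A miRNA is a short RNA cut from a hairpin, whose arms each give a mature miRNA named 5p or 3p after the end of the hairpin it lies nearer to. It is loaded into an Argonaute protein and represses mRNAs that pair with its seed, bases 2 to 8, so miRNAs with the same seed share many targets. In heart muscle the miR-1 and miR-133 families are abundant, and miR-208a, miR-208b and miR-499 are cut from introns of myosin heavy chain genes. Myh6 is the adult ventricular myosin gene of the mouse and Myh7 the fetal one, which returns under load.

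The sequences on which the results turn are shown first, as RefSeq gives them (GRCm38.p6; 413 of the 484 tested miRNAs had one), with the seed in capitals. The miR-29 family, known for repressing collagen and other matrix genes, rose, and miR-29b-3p had the largest rise after miR-208b-3p among miRNAs at a mean of 100 CPM or more. Its 3 members share the seed AGCACCA and differ after it.
miR-29a-3p: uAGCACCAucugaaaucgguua
miR-29b-3p: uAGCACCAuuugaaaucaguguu
miR-29c-3p: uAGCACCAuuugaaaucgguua
The hairpin of miR-29c lies at chr1:195037547-195037634 on the plus strand, within an exon of the non-coding transcript A330023F24Rik, and that of miR-29a at chr6:31062660-31062747 on the minus strand, outside any annotated gene of that strand.

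The myosin miRNAs are shown because the first of them was the strongest riser among miRNAs at a mean of 100 CPM or more over the 8 libraries. miR-208b (chr14:54975700-54975776, minus strand) lies in an intron of Myh7 and miR-208a (chr14:54949060-54949142, minus strand) in an intron of Myh6. miR-499 (chr2:155622880-155622958, plus strand) lies in an intron of Myh7b.
miR-208b-3p: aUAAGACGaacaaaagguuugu
miR-208a-3p: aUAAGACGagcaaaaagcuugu
miR-499-5p: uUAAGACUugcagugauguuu

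The following miRNAs fell. miR-148a lies at chr6:51269812-51269910 (minus strand) outside any annotated gene of its strand, miR-30a at chr1:23272269-23272339 (plus strand) likewise, and miR-30e at chr4:120772606-120772697 (minus strand) in an intron of Nfyc.
miR-148a-3p: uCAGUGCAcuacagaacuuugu
miR-30a-3p: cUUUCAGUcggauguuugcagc
miR-30e-3p: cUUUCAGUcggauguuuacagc
The arms of miR-106b, cut from an intron of the replication gene Mcm7 (chr5:138165737-138165818, minus strand), changed in their ratio to each other and have different seeds.
miR-106b-5p: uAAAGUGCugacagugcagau
miR-106b-3p: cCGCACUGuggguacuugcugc

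The libraries of the groups differed in depth and make-up before any single miRNA was tested. Mature miRNAs took 10504090 to 16052359 counts per library at D0 and 3327351 to 14938730 at D14. Reads with no match to a mature miRNA made up 29.0% to 42.0% of the table total at D0 and 48.8% to 83.0% at D14, ranges that did not overlap, and the part of this difference in the results was not tested. Detected miRNAs numbered 625 to 815 at D14 against 533 to 548 at D0. The 815 were in D14 replicate 4, the deepest D14 library, with 14938730 mature counts. D14 replicates 1 to 3, with fewer mature counts than every D0 library, had 708, 625 and 651. The 10 most abundant miRNAs held 89.2% to 91.1% of counts at D0 and 60.2% to 62.4% at D14. miR-1a-3p, the main muscle miRNA, alone took 70.6%, 70.7%, 60.2% and 61.4% of mature counts in the 4 D0 libraries and 35.1%, 29.2%, 37.1% and 39.9% in the 4 D14 libraries. The share was 65.7% ± 5.71 (SD, n = 4) at D0 and 35.3% ± 4.53 at D14, a difference of -30.4 percentage points (exact permutation test, two-sided, p = 0.0286, the smallest that 4 against 4 allows).

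Because 1 miRNA held so much of each library, every change depends on the scale. CPM, counts scaled to the same total of mature counts in every library, treat that total as fixed. TMM factors, which centre the bulk of the miRNAs, were 0.289 to 0.357 at D0 and 1.91 to 2.04 at D14. Relative to D0 the median log2 fold change of the 484 miRNAs was 0.41 with TMM and 2.99 by library size alone, and it was 2.08 by library size without miR-1a-3p. Fold changes below are on the TMM scale unless library size is named, and their p-values, from the quasi-likelihood test of edgeR, were adjusted over the 484 miRNAs by Benjamini and Hochberg's method. A miRNA was called at an adjusted p under 0.05.

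On the TMM scale 324 of 484 miRNAs were called at D14 (66.9%), 184 higher (38%) and 140 lower (28.9%). By library size 402 were higher and 22 lower. All 184 that rose with TMM also rose by library size (38% of the 484), whereas 22 of the 140 that fell with TMM also fell by library size (4.55% of the 484). Of the other 118, 63 were called higher by library size and 55 were not called. In plain CPM the 4 D14 libraries all lay above the 4 D0 libraries for 368 miRNAs and all below for 11. Among the 113 miRNAs whose mean over the 8 libraries reached 100 CPM, 38 rose and 11 fell on both scales. A miRNA low at D0 could reach this mean through D14 alone, as miR-208b-3p did (means of 2.10 and 254 CPM). The cut thus in part set the count of rises. The mean distance between a D14 and a D0 library was 2.16 (lowest 1.56) on the log2 scale, against 1.21 (highest 1.49) within D0 and 0.802 (highest 0.906) within D14.

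**Figure D1:**
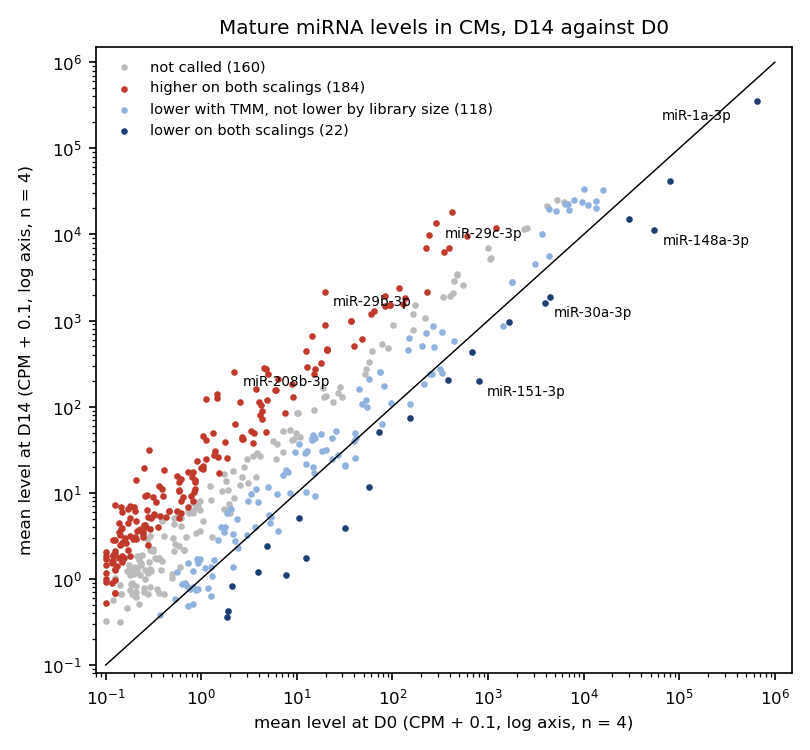
Mean level of each of the 484 tested miRNAs in CMs at D0 (x) and D14 (y), each over 4 libraries, in CPM + 0.1 on log axes; the line marks equal CPM. The 184 miRNAs higher on both scales lie well above the line, 118 miRNAs lower with TMM but not by library size lie mostly on or above it, and the 22 lower on both lie below it, miR-1a-3p at the top right among them.

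The largest rise among miRNAs at a mean of 100 CPM or more over the 8 libraries was that of miR-208b-3p, which reached this mean through D14. Its level was 2.67, 1.91, 1.99 and 1.84 CPM at D0 and 312, 176, 333 and 196 CPM at D14. The lowest D14 library stood far above the highest D0 library, and the log2 fold change was 4.31 ± 0.52 (SE; adjusted p = 4.3e-07) with TMM and 6.92 by library size. A ratio within each library, which no scaling factor can move, gave the same direction. miR-208b-3p amounted to 1.54% to 2.43% of miR-208a-3p at D0 and to 8.37% to 19.1% at D14, a difference of 2.51 on the log2 scale. The pair share a seed and differ at few bases, as shown above, so reads could be split between them by the counting.

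miR-29b-3p and miR-29c-3p rose with it. miR-29b-3p was at 21.3, 11.1, 19.2 and 26.0 CPM at D0 and at 2238, 3188, 1890 and 1330 CPM at D14, with a log2 fold change of 4.22 ± 0.60 (adjusted p = 3.3e-06). miR-29c-3p was at 567, 212, 161 and 201 CPM at D0 and at 13704, 12655, 15547 and 11817 CPM at D14, with a log2 fold change of 2.97 ± 0.43 (adjusted p = 4.3e-06). D0 replicate 1 was the highest of its group for miR-29c-3p and still far below D14. miR-29a-3p, the most abundant member, went from a mean of 418 CPM to 18118 CPM (log2 fold change 2.85). Members of this family are close in sequence, so the split of reads among them is uncertain.

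The other abundant risers included miR-210-3p, which hypoxia-inducible factor induces, miR-17-5p of the miR-17-92 cluster, miR-339-5p and the 5p arms of miR-199a and miR-199b. miR-210-3p was at 10.8, 2.69, 2.43 and 2.75 CPM at D0 and at 212, 256, 339 and 290 CPM at D14 (log2 fold change 3.30 ± 0.56, adjusted p = 2.9e-05). miR-17-5p was at 11.7, 2.34, 2.74 and 2.83 CPM at D0 and at 217, 209, 240 and 287 CPM at D14 (log2 fold change 3.04 ± 0.61). miR-339-5p rose from a mean of 4.41 CPM to 281 CPM (log2 fold change 3.43). All of these were far under 100 CPM at D0 and reached a mean of 100 CPM over the 8 libraries through D14. In all 3 of these, D0 replicate 1 was the highest of its group by a wide gap, and without it the log2 fold changes were 4.02, 3.82 and 4.71. miR-199a-5p rose from a mean of 19.6 to 896 CPM and miR-199b-5p from 14.3 to 655 CPM, each with a log2 fold change of 2.92. These last miRNAs are fibroblast markers, whose levels are given further on.

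**Figure D2:**
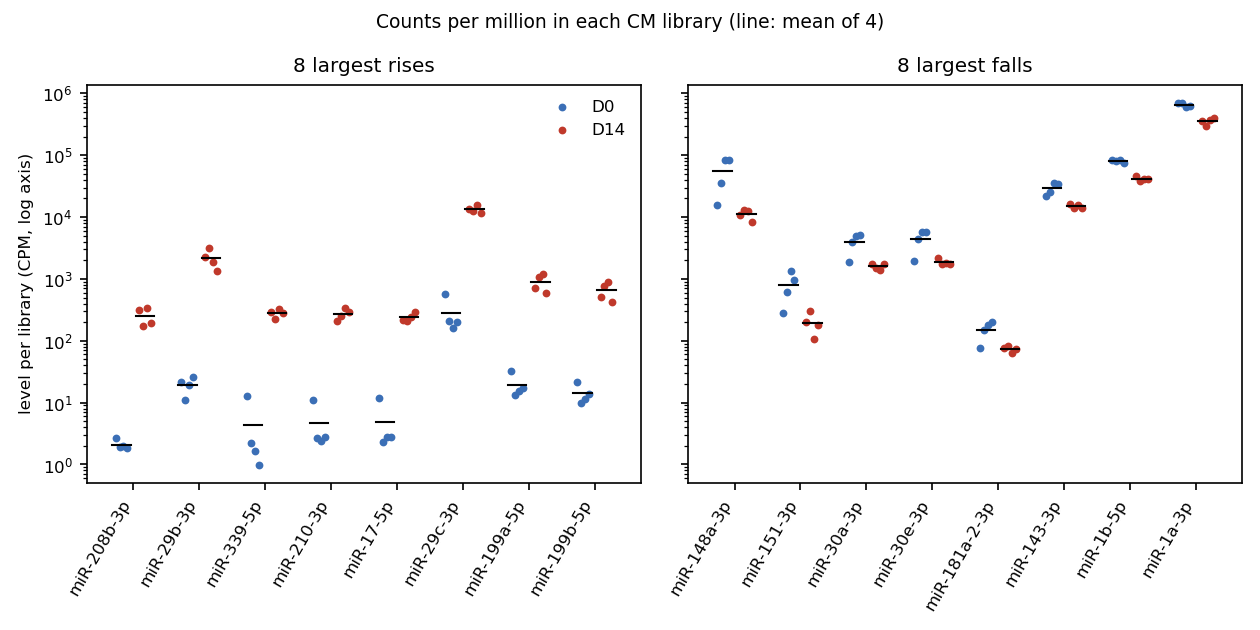
Level of the leading risers (left) and fallers (right) in each CM library, in CPM on a log axis, D0 and D14 side by side, with a line at the mean of 4. The D14 points of miR-208b-3p (176 to 333 CPM) and miR-29b-3p (1330 to 3188 CPM) stand far above their D0 points, whereas for miR-30e-3p and miR-151-3p the groups overlap in CPM.

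Among miRNAs at a mean of 100 CPM or more, the falls were led by miR-148a-3p, a miRNA known from liver lipid metabolism and B cells. It was at 15412, 35412, 84068 and 83398 CPM at D0 and at 10955, 13212, 12643 and 8182 CPM at D14. The D0 libraries spread over more than the range of D14, with replicate 1 the closest to D14, but the groups did not overlap. The log2 fold change was -4.87 ± 0.80 (adjusted p = 1.8e-05) with TMM and -2.28 by library size. miR-151-3p had a log2 fold change of -4.62 ± 0.62, and -2.01 by library size. It was at 279, 609, 1339 and 949 CPM at D0 and at 201, 298, 108 and 179 CPM at D14, so its groups overlapped in CPM and not on the TMM scale.

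The 3p arms of miR-30a and miR-30e, which share the seed UUUCAGU, fell alike. miR-30a-3p was at 1851, 3991, 4902 and 5113 CPM at D0 and at 1772, 1522, 1404 and 1757 CPM at D14 (log2 fold change -3.90 ± 0.46, adjusted p = 3.4e-07, and -1.30 by library size). miR-30e-3p fell by 3.84 on the log2 scale with TMM and by 1.23 by library size. D0 replicate 1 lay close to D14 in both. miR-181a-2-3p (-3.63, and -1.02 by library size) and miR-143-3p, a smooth muscle miRNA (-3.58, and -0.98), were lower on both scales as well.

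Muscle miRNAs moved in both directions. Of 14 tested members of the miR-1, miR-133, miR-206, miR-208 and miR-499 families, 11 rose, 3 fell and none missed the threshold, and each of these calls held on both scales. The 3 that fell were miR-1a-3p (-3.51 ± 0.32 with TMM and -0.90 by library size, adjusted p = 3.6e-08 and 2.7e-07), miR-1b-5p and miR-206-3p (-3.51). miR-206-3p differs from miR-1a-3p at few bases and amounted to 0.0472% to 0.0683% of it in all 8 libraries, with no separation of the groups. miR-1b-5p comes from the strand opposite to miR-1a, and it amounted to 10.3% to 13.7% of miR-1a-3p in all 8. Both fell in proportion to miR-1a-3p. Whether the counting used the strand is not given in the sources used here, so reads of miR-1a-3p counted for either cannot be told apart from their own.

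The other muscle miRNAs gained on miR-1a-3p. miR-133a-3p, cut from the same primary transcripts as miR-1a, was at 903, 295, 186 and 182 CPM at D0 and at 6881, 5095, 7613 and 7894 CPM at D14 (log2 fold change 1.54 ± 0.47, adjusted p = 0.006). It made up 0.0296% to 0.128% of the count of miR-1a-3p at D0 and 1.75% to 2.05% at D14. miR-208a-3p was at 173, 78.6, 111 and 104 CPM at D0 and at 1633, 2003, 3974 and 2054 CPM at D14 (log2 fold change 1.77 ± 0.31). miR-499-5p rose least, from a mean of 1200 to 11788 CPM (log2 fold change 0.70 ± 0.21, adjusted p = 0.0046). Its log2 ratio to miR-208a-3p went from 3.39 to 2.37.

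The label of the cells was checked against these markers. At D0, miR-1a-3p had a mean of 657447 CPM in CMs, against medians of 102324 CPM in endothelial cells (ECs), 2957 CPM in fibroblasts (FBs) and 108382 CPM in hematopoietic cells (HCs). miR-208a-3p at D0, with a mean of 117 CPM, was near the median of 90.7 CPM of HCs. miR-133a-3p at D0, with a mean of 391 CPM, was below the medians of ECs (1182 CPM) and HCs (754 CPM). At D14 both were above these levels. miR-499-5p at D0, with a mean of 1200 CPM, was above ECs (398 CPM) and FBs (23.4 CPM) and near HCs (981 CPM). miR-208b-3p at D0, with a mean of 2.10 CPM, was above FBs (0.039 CPM) and near ECs (1.33 CPM) and HCs (1.86 CPM). The D0 libraries thus stood far above the other cell types by miR-1a-3p. By their means they were little above HCs for miR-499-5p, miR-208a-3p and miR-208b-3p, and they were below HCs and ECs for miR-133a-3p.

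Families drawn up from general knowledge were counted next, beside the background of 38% higher and 28.9% lower over all tested miRNAs. Of the miR-29 family 4 of 6 tested members rose, none fell, and the median log2 fold change was 2.24 (4.83 by library size). The miR-17-92 cluster and its paralogs, known to promote proliferation, had 11 of 14 higher and 2 lower, with a median of 2.26, or 1.99 when miR-93-3p, at 0 counts in every D0 library, is put at the bound that 3 counts over the group give. The 2 that were lower with TMM were miR-106b-3p (-2.56, and 0.04 by library size) and miR-25-3p (-1.73, and 0.87 by library size). Of 22 members with a count, 14 passed the filter, which was set over all CM days. miR-20b-5p, miR-17-3p and miR-18a-5p, at means of 0.147, 0.157 and 0.220 CPM at D0, were near or under 3 counts there. Such members passed through later days and could hardly be called lower, so the filter in part set this count of rises. The miR-15/16 family, which restrains the cell cycle, had 10 of 15 higher and 3 lower, with a median of 2.07. The same limit held for its members miR-15a-3p and miR-16-2-3p, at means of 0.0429 and 0.102 CPM at D0. miR-15a-5p went from a mean of 1.36 to 140 CPM (log2 fold change 4.16 ± 0.69), miR-497a-5p from 1.35 to 124.9 CPM (4.02 ± 0.69) and miR-16-5p from 59.6 to 1184 CPM (1.72 ± 0.32). Without D0 replicate 1 the values were 5.13 for miR-15a-5p and 5.20 for miR-497a-5p.

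miRNAs tied to hypertrophy and fibrosis were mixed, with 12 of 26 higher and 7 lower (median 0.67). Among them miR-21a-5p, the miRNA of fibrotic hearts, named here after its values were seen, was at 500, 153, 142 and 161 CPM at D0 and at 9103, 10376, 11044 and 8761 CPM at D14 (log2 fold change 2.78 ± 0.35, adjusted p = 7.0e-07). miR-27b-3p, miR-27a-3p and miR-22-3p, the most abundant of the list, had values of -0.33, -0.44 and -0.31 with TMM, of which that of miR-27a-3p passed the test, and of 2.28, 2.16 and 2.28 by library size. miR-27b-3p was among the 5 most abundant miRNAs of CMs at D14, at a mean of 25290 CPM.

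Families that were lower with TMM mostly changed sign by library size. The miR-30 family, abundant in CMs, had 1 of 11 higher and 7 lower, with a median of -0.88 (1.72 by library size). miR-30a-5p, from the arm opposite to the falling one, went from a mean of 10115 to 33406 CPM, a log2 fold change of -0.88 ± 0.26 with TMM and 1.72 by library size. miR-30b-5p, named after its values were seen, was the member that rose (226 to 7007 CPM, log2 fold change 2.36). The let-7 family, which marks differentiated cells, had 3 of 21 higher and 9 lower (median -0.37, and 2.23 by library size). In the miR-378 family, whose first member lies in the gene of a regulator of mitochondrial metabolism, miR-378a-5p rose and the other 4 were lower with TMM (median -0.94, and 1.66 by library size).

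The family of miR-148 and miR-152 had none of 6 higher and 5 lower (median -1.97, and 0.61 by library size), and only miR-148a-3p was lower on both scales. The family of miR-28, miR-151 and miR-708 had 2 of 6 higher and 3 lower, and that of miR-99, miR-100 and miR-125 1 of 10 higher and 5 lower. miR-99a-5p, in the top 5 of both groups, was at 7203, 11913, 21082 and 23448 CPM at D0 and at 24743, 61137, 26713 and 20070 CPM at D14, which overlap (log2 fold change -1.53 with TMM and 1.06 by library size). The TMM value was -2.18 without D14 replicate 2, and it was not called without D0 replicate 3 (-1.34, adjusted p = 0.059). Of the miR-26 family 1 of 4 rose, and of the arms of miR-210 1 of 2 rose.

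The imprinted Dlk1-Dio3 region on chromosome 12, a large cluster of miRNAs active in development, had 32 of 44 tested members higher and 1 lower. Its median was 2.40 (4.85 by library size), or 2.00 with the 5 members at 0 counts in every D0 library put at their bound. The most abundant members, miR-127-3p (26.9 and 142 CPM, log2 fold change -0.19, adjusted p = 0.62) and miR-381-3p (8.38 and 53.7 CPM, 0.12, adjusted p = 0.83), were not called, and the member that was lower with TMM was miR-379-5p (-1.35). miR-411-5p, next in abundance, was at 0.708 to 1.43 CPM at D0 and at 31.3 to 66.7 CPM at D14 (log2 fold change 3.02 ± 0.35). In the stretch from chr12:109709060-109747960, 25 of 32 tested miRNAs rose and 1 fell. At D0 many of these counts lay under the limit of 3 counts, 0.187 to 0.286 CPM, so the sizes of their rises are imprecise. Of 73 members with a count, 44 passed the filter, which was set over all CM days. Members near 0 at D0 passed it through later days and could hardly be called lower. Both counts of rises were thus set in part by the filter. Over all tested miRNAs, 9 were at 0 counts in every D0 library and 0 in every D14 library.

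**Figure D3:**
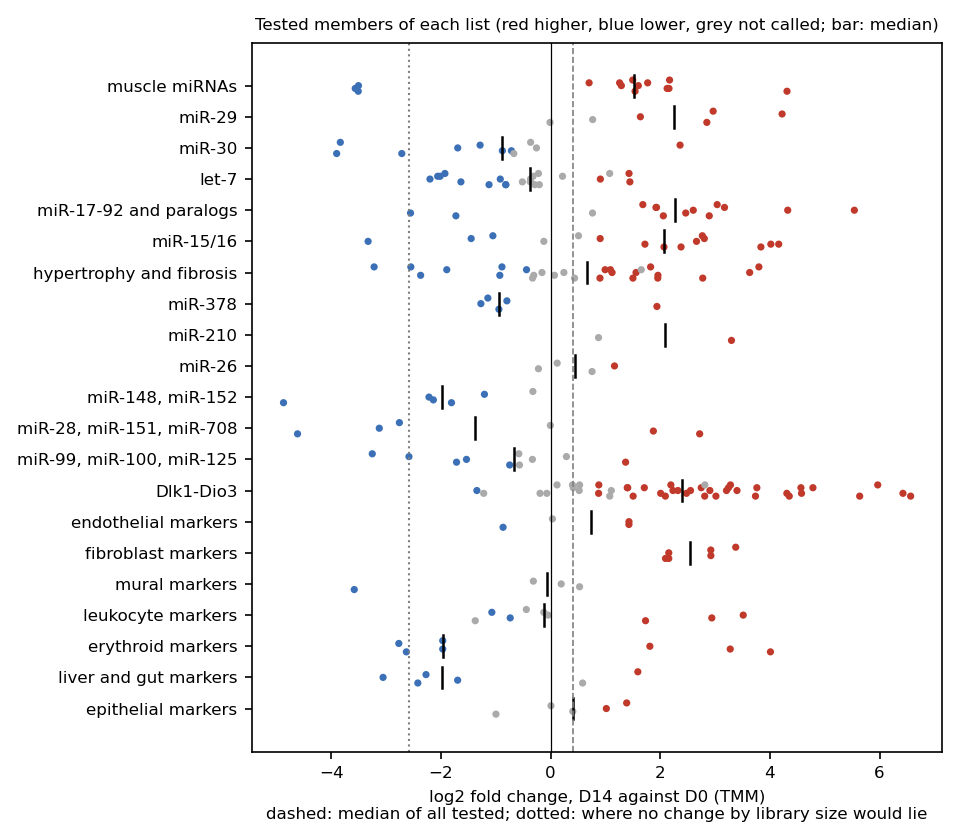
Log2 fold change at D14 against D0 (x, TMM scale) of every tested member of each list (rows), coloured by call, with a bar at the list's median. The dashed line is the median of all 484 miRNAs (0.41) and the dotted line the place where a miRNA unchanged by library size would lie; most points of the let-7, miR-30 and miR-378 families lie between 0 and the dotted line.

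Calls were uniform for some seeds with at least 3 tested miRNAs and mixed for others, and likeness within a seed was not tested. All 6 tested miRNAs with the seed AAAGUGC (miR-17-5p, miR-20a-5p, miR-20b-5p, miR-93-5p, miR-106a-5p and miR-106b-5p) rose, by 1.68 to 4.33, and all 6 with AGCAGCA (miR-15a-5p, miR-15b-5p, miR-16-5p, miR-195a-5p, miR-322-5p and miR-497a-5p) rose, by 0.90 to 4.16. The 3 with AGCACCA (miR-29) and the 3 with AGUGCAA (miR-130a-3p, miR-130b-3p and miR-301a-3p) rose too. In contrast, the 3 with ACCCGUA (miR-99a-5p, miR-99b-5p and miR-100-5p) were lower with TMM, 1 of them on both scales. Of 9 let-7 miRNAs with GAGGUAG 4 were lower, 5 were not called and none was higher. Of the 4 miR-181 miRNAs with ACAUUCA 1 was higher and 2 were lower, and of the 4 with AUUGCAC (miR-25-3p, miR-32-5p, miR-92a-3p and miR-92b-3p) 1 was higher and 1 lower. Members near 0 at D0, such as miR-20b-5p (mean of 0.147 CPM), passed the filter through later days and could hardly be called lower. Counts of rises for such seeds were thus set in part by the filter. Examples of the first seeds are shown here beside miR-106b-5p above.
miR-17-5p: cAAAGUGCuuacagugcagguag
miR-93-5p: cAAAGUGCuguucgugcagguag
miR-15a-5p: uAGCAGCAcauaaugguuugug
miR-497a-5p: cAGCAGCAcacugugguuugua
miR-130a-3p: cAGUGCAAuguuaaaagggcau

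Among the 413 miRNAs with a sequence, the median GC content was 43.5% in those that rose, 50% in those that fell with TMM and 47.8% in the others. The last base was A in 25.3% of those that rose and 13.4% of those that fell. In the 17 miRNAs with a sequence that fell on both scales the median GC content was 45.5% and the last base was A in 17.6%. The median length was 22 bases in every class. GC content and base use can alter ligation and amplification, and their part in the calls was not tested.

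The ratio of the arms of a hairpin within a library needs no scaling factor. Of 99 hairpins with enough counts on both arms, 71 changed their log2 ratio of 5p to 3p (71.7%, limma, adjusted p under 0.05), 38 towards 5p and 33 towards 3p. For 55 of the 71 the D14 and D0 libraries did not overlap. This was counted among the called hairpins alone. The call and the separation rest on the same D0 and D14 libraries, so the separation adds no support to the calls. The leading arm itself changed in 16, from 3p to 5p in 10 and from 5p to 3p in 6.

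Among hairpins with a mean of 50 or more counts on each arm over the CM libraries, miR-106b had the largest change. Below that limit some changes were larger, as for miR-582 (8.38 ± 1.30), which had 2, 0, 0 and 0 counts on 5p at D0. The arms of miR-106b held 13, 16, 12 and 12 counts on 5p and 320, 516, 790 and 659 on 3p at D0. At D14 they held 647, 492, 497 and 1960 counts on 5p and 266, 249, 98 and 678 on 3p. The 5p arm thus went from the minor arm in every D0 library to the major arm in every D14 library, from 2.55% ± 1.12 to 73.8% ± 7.26 of the hairpin's counts (change 6.84 ± 0.80, SE, adjusted p = 1.5e-06).

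miR-151, cut from an intron of the kinase gene Ptk2, changed in the same way. Its 5p arm held 3.73% ± 3.37 of counts at D0 and 70.4% ± 5.30 at D14 (change 6.36 ± 0.77). For miR-674 the 5p share went from 1.07% to 16.2% (change 4.85), and for miR-143 from 0.0768% to 1.08% (4.51), so the 3p arm still led. Changes towards 3p at that count limit were led by let-7i, whose 5p share stayed near complete (99.9% and 99.1%, change -3.74), and by miR-221, a miRNA of vessels and proliferating cells. In miR-221 the 5p arm held 240, 465, 196 and 338 counts beside 772, 601, 456 and 629 on 3p at D0, and 126, 168, 66 and 343 beside 3299, 3218, 1731 and 10880 at D14. The 5p share fell from 33.1% to 3.84% (change -3.62 ± 0.49). miR-362 (-3.42) rested on 7, 1, 0 and 0 counts of the 3p arm at D0, and miR-532 changed by -3.33 ± 0.93. Without D0 replicate 1 the changes of miR-674, miR-143 and miR-532 were 5.62, 5.24 and -4.03.

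**Figure D4:**
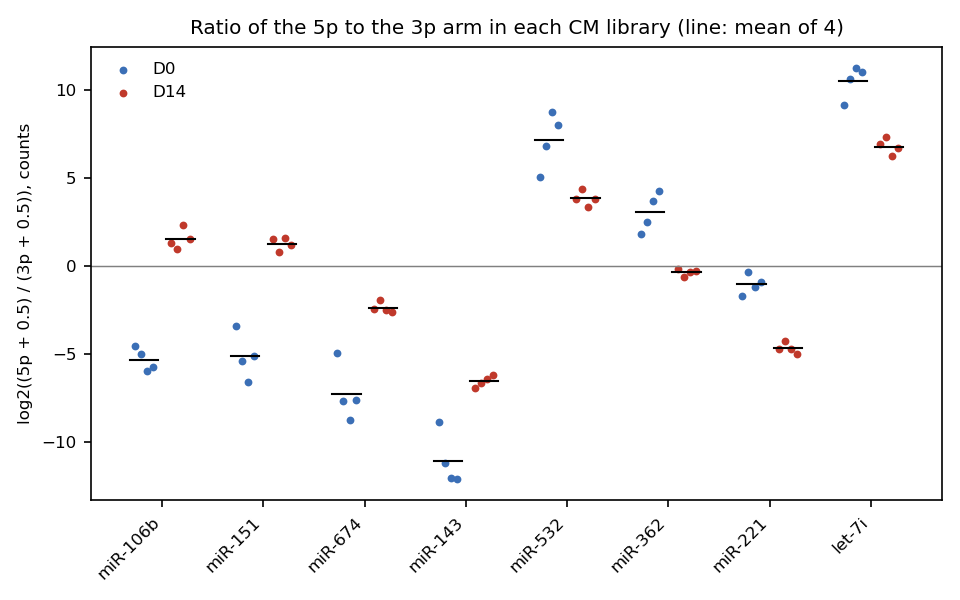
Log2 ratio of 5p to 3p counts (each with 0.5 added) of 8 hairpins, the 4 with the largest change each way among those with a mean of 50 or more counts per arm, in each CM library, with a line at the mean of 4. D0 and D14 points do not overlap in any of the 8; for miR-106b and miR-151 they lie on opposite sides of 0.

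Markers of other cells moved with the comparison. The 6 fibroblast markers (miR-199a, miR-199b and miR-214) held 0.00695% to 0.0217% of mature counts at D0 and 0.255% to 0.407% at D14, and all 6 rose on both scales. For miR-199a-3p, listed with the same counts as miR-199b-3p, the mean went from 36.7 to 978 CPM, against a median of 43186 CPM in FBs at D0. The 4 endothelial markers (miR-126a and miR-126b) held 0.448% to 1.00% at D0 and 2.08% to 2.98% at D14. Of these, miR-126b-3p had the same counts as miR-126a-5p in every D0 library (2273, 739, 915 and 696). At D14 its counts were 7929, 6154, 4691 and 30855 beside 7921, 6149, 4688 and 30841. The same reads may thus have entered the sum under both names, which was not tested. miR-126a-3p itself was at a mean of 6820 and 22461 CPM, against a median of 195395 CPM in ECs at D0, with a log2 fold change of -0.87 with TMM and 1.72 by library size. The exact permutation test gave p = 0.0286 for each of these shares (adjusted over 7 lists, 0.0333).

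Leukocyte markers held 0.0111% to 0.0267% at D0 and 0.0612% to 0.0871% at D14. Of 9 tested members 3 rose with TMM, 2 were lower and 4 were not called (median -0.12, and 2.21 by library size). The most abundant, miR-146a-5p, miR-155-5p and miR-150-5p, had log2 fold changes of -0.04, -0.74 and -0.44 with TMM. miR-142a-3p, found in all blood cells, had 17, 9, 15 and 7 counts at D0 and 71, 89, 99 and 229 at D14, and miR-223-3p, of neutrophils, had 2, 2, 1 and 0 and then 42, 38, 19 and 93. Both were far below HCs at D0, with medians of 3259 and 783 CPM, and 1 leukocyte marker was at 0 in all 8 libraries. Mural cell markers (miR-143 and miR-145a) held 2.28% to 3.64% in sum at D0 and 1.65% to 1.92% at D14, a fall carried by miR-143-3p (means of 29542 and 14992 CPM). The other 3 tested members were not called with TMM and were higher by library size, miR-145a-5p among them (396 and 1933 CPM). Erythroid markers, at 0.368% to 0.452% and 0.435% to 0.747%, did not pass in sum (exact permutation p = 0.0857). Their sum was mostly miR-486, whose 4 tested members were lower with TMM, while miR-451a, a miRNA of red blood cells (1.27 and 27.3 CPM, log2 fold change 1.81), miR-144-3p and miR-144-5p rose on both scales. The liver and gut markers were at 0.0327% to 0.0424% and 0.0518% to 0.0652%. Of 6 tested members 1 rose with TMM, 4 were lower and 1 was not called (median -1.98, and 0.57 by library size). The mean of miR-192-5p went from 332 to 243 CPM and that of miR-194-5p from 17.6 to 318 CPM. Epithelial markers were at 0.00065% to 0.00176% and 0.00519% to 0.00967%, with 3 of 10 at 0 in all 8. The test gave p = 0.0286 by exact permutation for the leukocyte, mural, liver and gut, and epithelial lists. All 54 marker miRNAs together held 4.19% ± 0.66 at D0 and 5.43% ± 0.397 at D14 (exact permutation p = 0.0286). With the reads of no match in the denominator this total differed by -0.936 percentage points, the endothelial (p = 0.143), leukocyte (p = 0.0571), epithelial (p = 0.0571) and liver and gut (p = 0.343) lists no longer passed the exact permutation test, and the fibroblast share was still higher in every D14 library. The part of other cells in the changes above was not tested.

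D14 was set beside the other days after AMI to place it in the course. The mean share of miR-1a-3p was lowest at D14, where it was 29.2% to 39.9%. It was 52.6% to 60.3% at D1, reached at most 51.7% at D3, and overlapped D14 at D7 (37.5% to 54.6%), while the D28 libraries were at 50.1% to 55.4%. The mean of miR-29c-3p was highest at D14 (13431 CPM) and next highest at D7 (11604 CPM), against 2234 CPM at D1, 4269 CPM at D3 and 5659 CPM at D28. D14 libraries were about as far from D7 libraries (mean distance 0.803) as from each other (0.802).

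Against D7, 7 of 484 miRNAs differed (1.45%; 52 at an unadjusted p under 0.05, and 12 of 484 with DESeq2), all under 100 CPM. The 5 that were higher at D14 were miR-7225-5p, miR-706, miR-3470a, miR-3470b and miR-1291, named after their values were seen, with log2 differences of 2.13 to 4.19. miR-706 had 19, 20, 34 and 11 counts at D14 and 4, 8, 2 and 5 at D7. The share of reads with no match was 41.8% to 46.2% at D7, below the 48.8% to 83.0% of D14. The 2 that were lower were miR-34c-5p (-0.99) and miR-455-5p (-1.17). With any 1 library left out or by library size, 0 miRNAs were called lower, and 6 with DESeq2. The count was 6 without D14 replicate 4 and 0 to 3 without any 1 of the other 7 libraries of D14 and D7.

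Against D28, 77 of 484 miRNAs differed (15.9%), 38 higher and 39 lower at D14, and by library size 141 were higher and 3 lower. miR-29b-3p was higher at D14 by 2.36 ± 0.55 (adjusted p = 0.0079), miR-208b-3p by 1.43 ± 0.45 (adjusted p = 0.032) and miR-218-5p, hosted by the Slit genes, by 1.15 ± 0.31 (adjusted p = 0.013). The difference of miR-208b-3p was 1.15 to 2.14 with 1 library left out, highest without D28 replicate 4, and lost its call without D14 replicate 1 or 3 or D28 replicate 1, 2 or 3 (adjusted p of 0.054 to 0.125). That of miR-218-5p lost it without D14 replicate 2 (0.91, adjusted p = 0.072). miR-1a-3p, miR-1b-5p and miR-30a-3p were lower at D14, the first by 1.504 ± 0.30, miR-1b-5p by 1.35 ± 0.33 and miR-30a-3p by 1.28 ± 0.42. Without D28 replicate 1 miR-1b-5p was no longer called (-0.90, adjusted p = 0.082), and miR-30a-3p was not called without that library (-0.78, adjusted p = 0.29) or without any 1 of the D14 libraries (adjusted p of 0.059 to 0.089). The count of 77 fell to 49 without D14 replicate 2 and to 32 without D28 replicate 1, whose nearest library was one of D1.

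**Figure D5:**
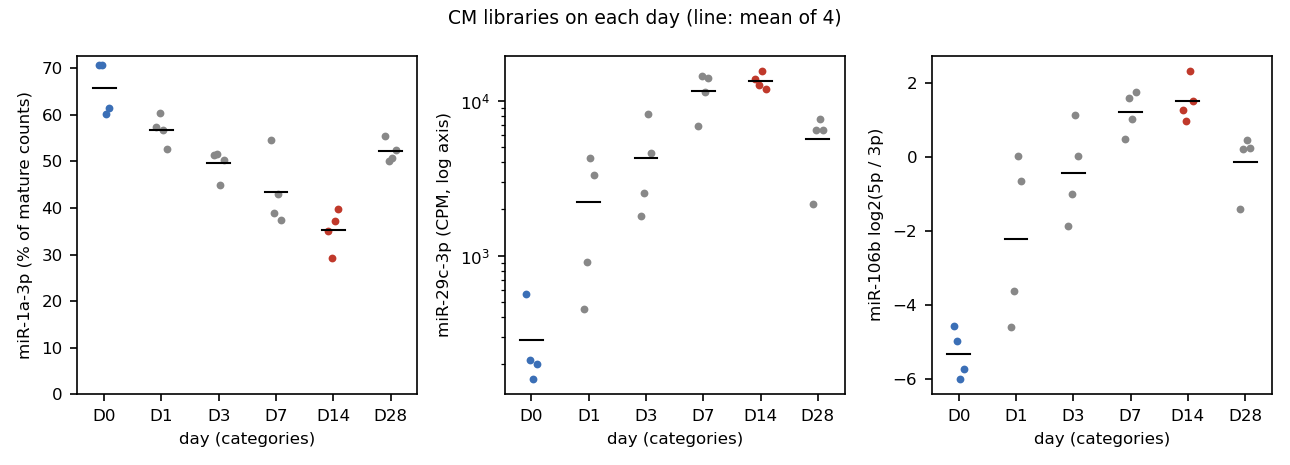
CM libraries on each day (categories on x), with a line at the mean of 4: the share of miR-1a-3p in mature counts (left), the level of miR-29c-3p in CPM on a log axis (middle) and the log2 ratio of the arms of miR-106b (right). The D14 points for miR-1a-3p (29.2% to 39.9%) lie below those of D0, D1, D3 and D28, and D14 and D7 overlap in all panels.

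The change at D14 was also compared with that in ECs, FBs and HCs of the same series, in a fit over 96 libraries and 712 miRNAs. By the paper's account, the cell types of a time point were taken from matched animals. The fit treated all libraries as independent, so its standard errors and p-values leave this matching out. In that fit 228 miRNAs rose and 144 fell in CMs, whereas HCs had 77 and 37, ECs 61 and 27 and FBs 58 and 24. The change in CMs differed from the mean change of the other cell types for 306 miRNAs (43%), 187 more positive and 119 more negative, or 425 and 23 by library size. The paper removed a D0 replicate of HCs and a D0 replicate of FBs as small RNA outliers, but all replicates were kept here. It does not number them. Without HC D0 replicate 3 the count was 311, with 180 more positive and 131 more negative, and no FB library was left out. The widest gap among abundant miRNAs was that of miR-29b-3p, with a log2 fold change of 4.50 ± 0.62 in CMs beside -2.22 in FBs, -1.26 in ECs and -0.67 in HCs, a difference of 5.88 ± 0.71 (adjusted p = 8.3e-11). miR-29c-3p (difference 3.90) and miR-29a-3p (3.81) followed, and in FBs both fell, by 1.35 and 1.36.

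At the other end, miR-148a-3p had a log2 fold change of -4.59 ± 0.49 in CMs beside 1.37 in FBs, 0.25 in HCs and -0.60 in ECs, a difference of -4.93 ± 0.54. For miR-151-3p the difference was -3.94 and for miR-10a-5p, encoded in the HoxB cluster, -3.39. miR-1a-3p was lower than at D0 in ECs (-1.49), HCs (-1.05) and CMs (-3.25) and did not pass the test in FBs (-0.41, adjusted p = 0.57), with a difference of -2.27 for CMs. miR-199a-5p rose in CMs, ECs and HCs, by 3.21, 0.95 and 1.32.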

How the data were processed

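Small RNA was sequenced from 500 ng of total RNA per CM library with 14 PCR cycles after a gel cut at 20 to 30 nt. The authors trimmed adaptors with Trim Galore, removed reads under 18 nt, and aligned to the mature sequences of miRBase 21 with the nf-core small RNA pipeline. The labels name Bowtie2, SAMtools and mm10. The values the authors deposited are raw counts per mature miRNA, 1 table per library; handling of multi-mapping reads is not given in the sources used here. miR-199a-3p and miR-199b-3p, and miR-486a-5p and miR-486b-5p, were listed with identical counts. Reads with no match, given on a line of their own, entered neither library sizes nor tests. Total RNA-seq was not analysed here.

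Groups came from the labels. Counts of the 24 CM libraries were filtered (filterByExpr), scaled (TMM) and fitted with edgeR 4.0.16 (robust quasi-likelihood, 1 group per day) in R 4.3.3; standard errors were the log2 fold change over the root of F. Distances were root-mean-square log2 differences over all 484 miRNAs (prior count 2). Arm ratios used limma 3.58.1, a pseudocount of 0.5 and a mean of at least 10 counts per arm. Scripts were tested on simulated data. The precision of a level is set by depth: 3 counts, the limit that 0 counts allow, equal 0.187 to 0.286 CPM at D0 and 0.201 to 0.902 CPM at D14, for counting error only.

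Named miRNAs were the 8 largest rises and falls at 100 CPM or more with groups apart on the TMM scale, the 5 most abundant per group, the 4 largest arm changes each way at 50 counts per arm, the 3 most abundant of each list, and the 3 largest differences each way from D7, D28 and the other cell types. Here 100 CPM was a mean over the CM libraries compared, both groups together. The comparison, the lists and the tests were chosen with earlier results of these data known. Other settings tried were DESeq2 1.42.0, library size, TMMwsp, no filter, a replicate block and a test against a log2 fold change of 1. Each compared CM library was also left out in turn, and of the other cell types HC D0 replicate 3 alone. Hairpin positions and hosts are from GENCODE M21 and RefSeq on GRCm38.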

Additional observations from a re-analysis of the deposited data

Results flagged for a closer look

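Each quantity checked gave a set of 4 values in the D0 libraries and another in the D14 libraries. In 20 of 176 such sets (11.4%) 1 library lay far from the other 3. Its gap to the nearest was above Dixon's 95% critical share of the set's whole range. Chance alone would give about 5% if the sets were independent. They were not, since all came from the same 8 libraries, so the shares are not a test. Of the 20 sets, 15 were in D0, 13 of them with replicate 1 as the far library, and 5 in D14.

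D0 replicate 1 was the highest of its group for miR-17-5p (gap 0.938 of the range), miR-20a-5p (0.928), miR-199a-5p (0.902), miR-210-3p (0.868) and miR-411-5p (0.86). The same held for miR-126a-5p and miR-126b-3p (each 0.867), which had the same counts at D0. It was the lowest for miR-181a-2-3p (0.892), miR-30a-3p (0.885) and miR-30e-3p (0.843). It was also the highest in the summed shares of fibroblast (0.971), leukocyte (0.87) and epithelial (0.854) markers. In each of these miRNAs the far value lay on the side of D14 on the TMM scale. Among all CM libraries its nearest neighbour was replicate 2 of D1, and its mean distance was 1.39 to the other D0 libraries and 1.69 to those of D14. Without this library 329 miRNAs were called, 188 higher and 141 lower. D0 replicate 4 was far from the others for miR-218-5p (0.888, highest) and for the share of reads with no match (0.84, at 42.0%).

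At D14, replicate 3, the library with the fewest mature counts, was the lowest for let-7a-5p (0.909), let-7f-5p (0.857) and let-7c-5p (0.855). Replicate 4 was the lowest for miR-27b-3p (0.902) and replicate 1 the highest for miR-30e-3p (0.943).

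The change at D14 differed between CMs and the mean of ECs, FBs and HCs, by the interaction term, for 306 of 712 miRNAs. The 6 given here were picked as the 3 largest called differences each way at 100 CPM or more, so their number was set by the choice. The differences were 5.88 for miR-29b-3p, 3.90 for miR-29c-3p, 3.81 for miR-29a-3p, -4.93 for miR-148a-3p, -3.94 for miR-151-3p and -3.39 for miR-10a-5p on the log2 scale.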

How the results depend on the processing

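D14 against D0 gave 324 called miRNAs, and 301 to 343 with DESeq2, TMMwsp, no filter on low counts, or D0 and D14 fitted alone. The range was 296 to 329 (154 to 188 higher, 132 to 155 lower) with 1 library left out. A test against a log2 fold change of 1 called 221. The direction of the falls depended on the scale: library size alone gave 402 higher and 22 lower, and library size without miR-1a-3p 342 and 56. Replicate numbers did not pair the samples (correlations of deviations of same-numbered D0 and D14 libraries of -0.15, 0.07, -0.02 and -0.21). With the replicate block the counts were 178 and 142, and none of the 70 named miRNAs changed its call. No leave-out turned the sign of a called one among the 70, while some of those not called changed sign. Changed arm ratios numbered 71, 63 to 74 with 1 library left out, and 47 where 50 counts were required on each arm, when fewer hairpins were tested. The share of miR-1a-3p differed by -32.3 to -28.4 percentage points with 1 library left out.

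D14 against D7 gave 7 miRNAs, 12 with DESeq2, 1 with the replicate block and 0 to 6 with 1 library left out. D14 against D28 gave 77, 144 by library size alone and 32 to 71 with 1 library left out. The causes were not tested. The difference between CMs and the other cell types gave 306, and 275 to 311 with 1 CM library of D0 or D14 or HC D0 replicate 3 left out. No library of ECs or FBs was left out. With no-match reads in the denominator, the summed share of all other-cell markers changed by -0.936 percentage points instead of 1.24, that of erythroid markers by -0.0607 and that of liver and gut markers by -0.00498.

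These named miRNAs were below 0 with TMM and above 0 on the log2 scale by library size alone: let-7a-5p (0.97), let-7c-5p (2.24), let-7f-5p (0.59), miR-100-5p (0.88), miR-126a-3p (1.72), miR-127-3p (2.41), miR-145a-5p (2.29), miR-146a-5p (2.54), miR-148b-3p (0.39), miR-150-5p (2.13), miR-152-3p (2.27), miR-155-5p (1.88), miR-215-5p (0.18), miR-22-3p (2.28), miR-25-3p (0.87), miR-26a-5p (2.37), miR-27a-3p (2.16), miR-27b-3p (2.28), miR-28a-5p (2.58), miR-30a-5p (1.72), miR-30d-5p (1.32), miR-30e-5p (1.94), miR-378a-3p (1.66), miR-378c (1.80), miR-378d (1.45), miR-486a-5p (0.63) and miR-99a-5p (1.06). By library size without miR-1a-3p the values above 0 were those of let-7a-5p (0.013), let-7c-5p (1.26), miR-126a-3p (0.77), miR-127-3p (1.42), miR-145a-5p (1.28), miR-146a-5p (1.56), miR-150-5p (1.09), miR-152-3p (1.29), miR-155-5p (0.88), miR-22-3p (1.36), miR-26a-5p (1.40), miR-27a-3p (1.21), miR-27b-3p (1.31), miR-28a-5p (1.71), miR-30a-5p (0.80), miR-30d-5p (0.39), miR-30e-5p (1.04), miR-378a-3p (0.74), miR-378c (0.88), miR-378d (0.53) and miR-99a-5p (0.16).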

Other observations

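A cluster of miRNAs on the X chromosome, chosen after its values were seen, was lower in CMs at D14. Within chrX:66776757-66839125 all 6 tested miRNAs fell on the TMM scale, by log2 fold changes of -3.04 to -5.60, and 4 of them (miR-871-3p, miR-881-3p, miR-465b-5p and miR-465c-5p) fell by library size as well. miR-881-3p had 41, 105, 434 and 141 counts at D0 and 11, 7, 7 and 17 at D14, and miR-871-3p had 21, 80, 225 and 113 and then 1, 17, 1 and 4. The levels were low, with means of 0.623 to 12.3 CPM at D0. For miR-881-3p, with a mean of 12.3 CPM in CMs at D0, the EC, FB and HC libraries had means of 2.22, 0.137 and 1.72 CPM. Its neighbour miR-871-3p was likewise higher in CMs than in ECs at D0 (7.58 and 1.76 CPM). The remaining members were lower in CMs than in ECs. Their CM and EC means were 0.623 and 1.13 CPM for miR-741-3p and 0.725 and 2.45 CPM for miR-470-5p. They were 1.75 and 2.62 CPM for miR-465b-5p and 1.80 and 2.21 CPM for miR-465c-5p.

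A pair of low miRNAs, named after their values were seen, fell on both scales. miR-582-3p was at 6.09, 6.58, 47.5 and 66.8 CPM at D0 and at 3.62, 4.26, 4.21 and 3.28 CPM at D14 (log2 fold change -5.61 with TMM and -3.06 by library size). miR-1964-3p was at 11.04, 40.1, 85.0 and 92.9 CPM and then at 10.7, 17.99, 5.11 and 11.98 CPM (-4.90 and -2.31). In both, as for miR-148a-3p, D0 replicates 3 and 4 were the highest and replicate 1 the lowest of the group.

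In Mcm7, the 3 hairpins of miR-25, miR-93 and miR-106b gave 3 tested miRNAs that rose and 2 that were lower with TMM, at the lowest -2.56 for miR-106b-3p, whose level by library size differed by 0.04. Across all tested miRNAs, 83 of 224 5p miRNAs rose and 65 fell, and of 232 3p miRNAs 94 rose and 65 fell.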
